A study of Homo sapiens with 24 samples.

Results

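Keratins are the intermediate filament proteins of epithelial cells. Each filament is built from pairs of 1 acidic type I chain and 1 basic type II chain, and an unpaired chain is degraded. KRT8 (type II) and KRT18 (type I) form the first pair of simple epithelia and of the luminal cells of the breast, where KRT7 and KRT19 join them, while KRT5 and KRT14 mark the basal layer. The genes described here are 7 keratins of simple epithelia, luminal cells and breast carcinoma lines: KRT7, KRT8, KRT80 and KRT81 among the type II genes, and KRT18, KRT19 and KRT23 among the type I genes. They were chosen by symbol, are 7 of 27431 genes in the genome-wide tables, and were followed through knockdown of TFAP2C, which encodes the transcription factor AP-2gamma.

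RNA was sequenced from HER2-positive breast carcinoma lines, with the stated aim of finding AP-2gamma targets tied to growth and invasiveness. The first comparison set SKBR3 cells given an siRNA to TFAP2C against SKBR3 cells given a non-targeting siRNA, both by lipid transfection and taken after 72 to 96 h. The second set HCC1954 cells given the TFAP2C siRNA against HCC1954 cells given the non-targeting siRNA, in the same way. The third set stable HCC1954 clones carrying a lentiviral shRNA to TFAP2C against stable HCC1954 clones carrying a control shRNA. The labels do not say how many clones were made, give the passage as between 5 and 10, and state that the lines were not authenticated by the submitters. Each group had 3 samples, and the labels do not describe them as separate cultures. The deposited p-values thus reflect how far those 3 samples varied, and that variation may be technical. Another line, HCC1569, is covered by a table of 68 selected genes that holds none of the 7 genes and no other keratin, so its 6 samples are not used here.

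Levels are the authors' FPKM (sequenced fragments scaled to transcript length and library size), 1 pooled value per group, summed here over the transcripts of a gene. No level therefore has a replicate spread, and sequencing depth is unknown. A gene is said to rise or fall where the q-value in the authors' deposited table was under 0.05 for its tested transcript, chosen as the one whose mean FPKM over the 6 groups was highest. The standard error (SE) of a log2 ratio, knockdown over control, was derived from the deposited test statistic of that transcript. The 3 comparisons were normalized separately, so levels of different comparisons stand side by side without a test.

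TFAP2C fell in all 3 comparisons: it was at 53.9 FPKM with TFAP2C siRNA and 157 FPKM with control siRNA in SKBR3, at 22.0 FPKM with TFAP2C siRNA and 92.4 FPKM with control siRNA in HCC1954, and at 3.46 FPKM in the TFAP2C shRNA clones and 81.0 FPKM in the control shRNA clones. Of all tested genes, 12.3% rose and 21.0% fell in SKBR3, 2.31% rose and 0.965% fell in HCC1954 with siRNA, and 36.3% rose and 39.2% fell between the shRNA clones. The summed level of 6 fibroblast markers was at most 1.96 FPKM in any group, and the leukocyte genes PTPRC and CD3E were at 0.0696 FPKM or lower, whereas the leukocyte list's lysosomal gene CD68 ranged between 4.64 and 36.6 FPKM and was called in no comparison. Of 4 endothelial markers, VWF and KDR were at 0.412 FPKM or lower in every group. CDH5 rose in SKBR3, at 29.2 FPKM with TFAP2C siRNA and 10.8 FPKM with control siRNA, and fell in HCC1954, at 0.559 FPKM with TFAP2C siRNA and 4.04 FPKM with control siRNA, and was listed at 0 in the TFAP2C shRNA clones against 9.59 FPKM in the control shRNA clones. PECAM1 fell in HCC1954, at 18.5 FPKM with TFAP2C siRNA and 26.96 FPKM with control siRNA, and at 0.0180 FPKM in the TFAP2C shRNA clones and 11.6 FPKM in the control shRNA clones. The part of these shifts in the keratin results was not tested. CDH1, the epithelial cadherin, was listed at 0.0970 FPKM with TFAP2C siRNA and 0.0894 FPKM with control siRNA in SKBR3.

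The TFAP2C shRNA clones stood apart from the other HCC1954 groups in markers that belong to the line. ERBB2, the HER2 gene, was at 20.8 FPKM in the TFAP2C shRNA clones and 1525 FPKM in the control shRNA clones. The 6 basal and myoepithelial markers summed to 2.68 FPKM in the TFAP2C shRNA clones and 657 FPKM in the control shRNA clones, with TP63, the regulator of basal epithelium, listed at 0 in the TFAP2C shRNA clones. Of the luminal markers that are not keratins, GATA3, FOXA1, MUC1 and AGR2 were at 0.731, 2.84, 1.45 and 0.0439 FPKM in the TFAP2C shRNA clones and at 9.99, 80.4, 60.6 and 23.0 FPKM in the control shRNA clones. The 6 epithelial markers summed to 441 FPKM in the TFAP2C shRNA clones and 904 FPKM in the control shRNA clones, and 3 rose (EPCAM, CLDN3 and CLDN7) and 3 fell (CDH1, CLDN4 and ESRP1). EPCAM, the epithelial adhesion molecule, was at 161 FPKM in the TFAP2C shRNA clones and 112 FPKM in the control shRNA clones, and CDH1 at 20.7 FPKM in the TFAP2C shRNA clones and 149 FPKM in the control shRNA clones. Whether the stable TFAP2C shRNA clones differ from their controls by more than the knockdown was not tested, and each keratin value of that comparison stands beside these shifts.

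The 7 genes lie in the 2 keratin clusters. On chromosome 12 (GRCh37), in order, are KRT80 (52562780 to 52585798, minus strand), KRT7 (52626304 to 52645970, plus strand), KRT81 (52679697 to 52685318, minus strand), KRT8 (53290971 to 53343738, minus strand) and KRT18 (53342655 to 53346690, plus strand). KRT18 is the one type I gene among them, all other type I genes being on chromosome 17, where KRT23 (39078952 to 39093898, minus strand) and KRT19 (39679869 to 39684560, minus strand) were found. Some of these genes overlap others: KRT86 runs from 52643084 to 52702947 on the plus strand, across KRT81 on its opposite strand and the end of KRT7 on the same strand, KRT7-AS lies inside KRT7 on the opposite strand, and the KRT8 and KRT18 annotations overlap. Those are GENCODE gene spans. In the authors' deposited loci, KRT81 and KRT86 share a locus (52668429 to 52702947), and KRT7 (52626954 to 52642709) lies apart from it. No source used here says that reads were counted by strand, so where such genes share exons their reads cannot be told apart, and KRT81 and its near-identical neighbour KRT86 are uncertain in the same way.

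The RefSeq promoter table (GRCh38.p14) matched 1 of the 7 genes, KRT8, and had no entry for KRT7, KRT18, KRT19, KRT23, KRT80 or KRT81. The 250 bases before the start given there, on the minus strand at chr12:52926470-52926719, are shown because KRT8 was the only member matched. AP-2 factors bind GC-rich palindromes. KRT8 has 4 listed transcripts, and whether this start belongs to the tested one was not examined. A link between this sequence and the level of KRT8 was not tested.
KRT8 promoter: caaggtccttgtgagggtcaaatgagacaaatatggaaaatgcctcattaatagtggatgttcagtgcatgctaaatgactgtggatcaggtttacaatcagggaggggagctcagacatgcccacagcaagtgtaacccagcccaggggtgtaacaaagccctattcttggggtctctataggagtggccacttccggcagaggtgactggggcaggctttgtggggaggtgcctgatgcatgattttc
There are no capitals because the AP-2-type palindrome searched, GCCNNNGGC (it reads the same on both strands), was not found in the 300-base window of the table, which adds 50 bases after the start. Over all 35116 promoters of that length, 23.2% hold GCCNNNGGC.

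In the 6 groups the 7 genes covered very different ranges. KRT8 lay between 807 FPKM, in the TFAP2C shRNA clones, and 2137 FPKM, in control SKBR3, a 2.65-fold span, and KRT18 spanned 4.28-fold, between 306 and 1310 FPKM. The others spanned far more: 67.1-fold for KRT23, 106-fold for KRT80, 533-fold for KRT19, 3164-fold for KRT7 and 58294-fold for KRT81. The spans of KRT7 and KRT81 divide by lowest values near 0, of 0.550 and 0.0458 FPKM, so their size is uncertain. All these spans also cross comparisons that were normalized separately. The lowest value was in the TFAP2C shRNA clones for KRT7, KRT8, KRT18, KRT80 and KRT81, in TFAP2C siRNA HCC1954 for KRT19, and in control SKBR3 for KRT23. Without replicate values it cannot be said which neighbours in these orders differ beyond their spread.

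**Figure D1:**
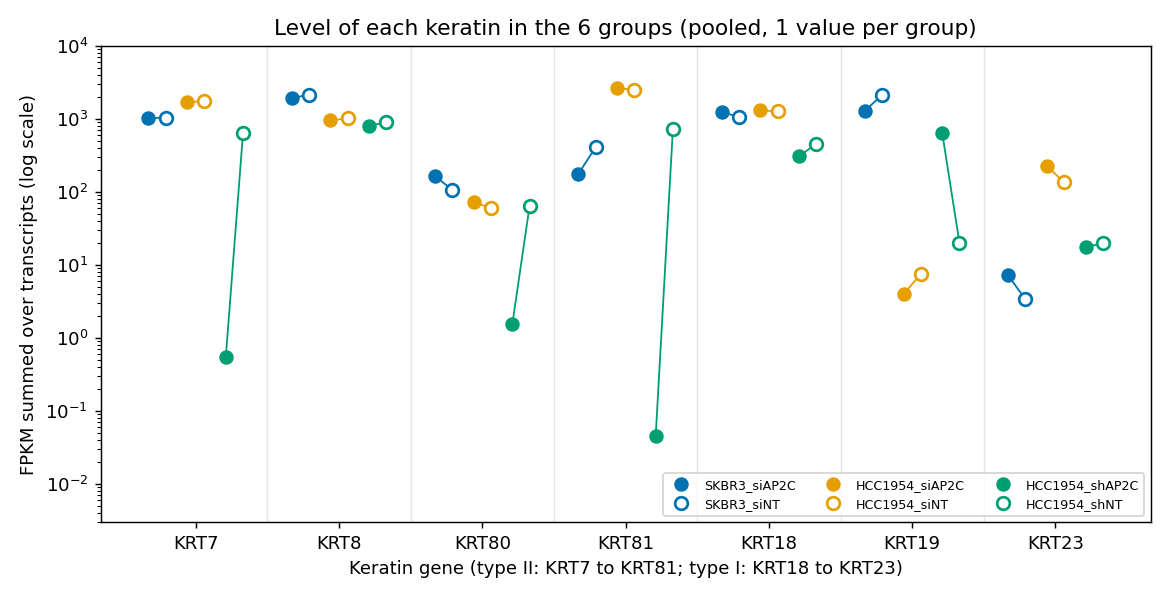
Level of each keratin in the 6 groups, as FPKM summed over transcripts on a log axis, with the TFAP2C knockdown left of its control in each comparison and 1 pooled value per point (siAP2C and shAP2C, filled, are TFAP2C knockdown; siNT and shNT, open, are its controls). KRT8 and KRT18 stay at 306 FPKM or higher in every group, while KRT7, KRT80 and KRT81 are at 1.57 FPKM or lower in the TFAP2C shRNA clones, where KRT19 is at 634 FPKM against 19.9 FPKM in the control shRNA clones.

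The lines differed first in which keratins were abundant. SKBR3 had KRT8, KRT19, KRT18 and KRT7 at 1940, 1297, 1243 and 1026 FPKM with TFAP2C siRNA and at 2137, 2135, 1072 and 1043 FPKM with control siRNA, and KRT8 ranked 10 of 27431 genes with TFAP2C siRNA and 12 with control siRNA. HCC1954 in the siRNA experiment had KRT81, a keratin of hair cortex that some breast carcinoma lines express, at 2672 FPKM with TFAP2C siRNA and 2478 FPKM with control siRNA, above KRT7, KRT18 and KRT8. KRT19 was nearly absent there, at 4.01 FPKM with TFAP2C siRNA and 7.51 FPKM with control siRNA. Control groups of HCC1954 also differed between experiments, KRT81 being at 727 FPKM in the control shRNA clones and 2478 FPKM with control siRNA, and KRT23 at 19.9 FPKM in the control shRNA clones and 136 FPKM with control siRNA.

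In SKBR3, TFAP2C knockdown came with lower KRT19 and KRT81 and higher KRT80 and KRT23, while the main filament pair was not called. That is 2 of 7 genes that rose, against 12.3% of all 9903 tested genes, and 2 that fell, against 21.0%. The median log2 ratio of the 7 genes, from summed FPKM, was -0.02, and that of the tested transcripts of all tested genes was -0.10. From summed FPKM, the median over all genes at 1 FPKM or more in both groups was -0.08. In these bulk samples fewer cells that express a keratin and less of its RNA per cell cannot be told apart.

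KRT81 was at 176 FPKM with TFAP2C siRNA and 408 FPKM with control siRNA, a log2 ratio of -1.21 (SE 0.19) with a deposited q of 4.41e-04. KRT19, the smallest keratin and one that lacks the tail domain, was at 1297 FPKM with TFAP2C siRNA and 2135 FPKM with control siRNA, a log2 ratio of -0.72 (SE 0.24, q = 4.41e-04). The knockdown value was thus 1.65-fold lower for KRT19 and 2.31-fold lower for KRT81. KRT80, a type II keratin found near desmosomes and the cell edge, rose, at 166 FPKM with TFAP2C siRNA and 107 FPKM with control siRNA. Its tested transcript was at 117 FPKM with TFAP2C siRNA and 70.3 FPKM with control siRNA (log2 ratio 0.74, SE 0.28, q = 4.41e-04), and the other transcript, at 48.3 FPKM with TFAP2C siRNA and 36.5 FPKM with control siRNA, had a q of 0.211. KRT23, an inducible type I keratin, was low and rose, with 7.20 FPKM in TFAP2C siRNA cells and 3.38 FPKM in control siRNA cells and a log2 ratio of its tested transcript of 1.03 (SE 0.39, q = 4.41e-04).

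KRT7, KRT8 and KRT18, abundant in SKBR3, were not called. KRT7 was at 1026 FPKM with TFAP2C siRNA and 1043 FPKM with control siRNA (q = 0.892), and KRT8 was at 1940 FPKM with TFAP2C siRNA and 2137 FPKM with control siRNA (q = 0.564). KRT18, the partner of KRT8, was at 1243 FPKM with TFAP2C siRNA and 1072 FPKM with control siRNA (q = 0.548). These differences had log2 ratios of -0.02, -0.14 and 0.21, with SEs of 0.22, 0.36 and 0.56 for the tested transcripts. The sign for KRT7 turned positive when the 2 groups were scaled to the same median (0.056) or total (0.098). Scaling to the same total shifts every log2 ratio up by 0.12 in SKBR3 and by 0.11 in the shRNA comparison.

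In HCC1954 with siRNA, 1 of 7 genes rose, against 2.31% of all 10773 tested genes, and 1 fell, against 0.965%. Those were KRT23, which rose, and KRT19, which fell. KRT23 was at 227 FPKM with TFAP2C siRNA and 136 FPKM with control siRNA. The rise was in its tested transcript, at 201 FPKM with TFAP2C siRNA and 91.7 FPKM with control siRNA (log2 ratio 1.13, SE 0.38, q = 4.25e-03), whereas its other transcript was at 25.5 FPKM with TFAP2C siRNA and 43.8 FPKM with control siRNA (q = 0.670). KRT19 was low in both groups, at 4.01 FPKM with TFAP2C siRNA and 7.51 FPKM with control siRNA (log2 ratio -0.91, SE 0.56, q = 0.0108). In the same line KRT15, the gene next to KRT19, fell, at 1097 FPKM with TFAP2C siRNA and 1869 FPKM with control siRNA.

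The abundant keratins of HCC1954 were not called with siRNA. KRT81, at the levels given above, had a q of 0.960. KRT7 was at 1708 FPKM with TFAP2C siRNA and 1740 FPKM with control siRNA (q = 0.978), and KRT8 at 953 FPKM with TFAP2C siRNA and 1020 FPKM with control siRNA (q = 0.939). Their log2 ratios were 0.11 for KRT81, -0.03 for KRT7 and -0.11 for the tested transcript of KRT8. KRT80 was at 73.7 FPKM with TFAP2C siRNA and 59.4 FPKM with control siRNA (q = 0.734). KRT18 was at 1310 FPKM with TFAP2C siRNA and 1271 FPKM with control siRNA, but its signal was split between transcripts. The tested transcript was at 546 FPKM with TFAP2C siRNA and 368 FPKM with control siRNA (q = 0.741), and the other was at 764 FPKM with TFAP2C siRNA and 903 FPKM with control siRNA (q = 0.857). In the other comparisons nearly all KRT18 signal was in the tested transcript.

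**Figure D2:**
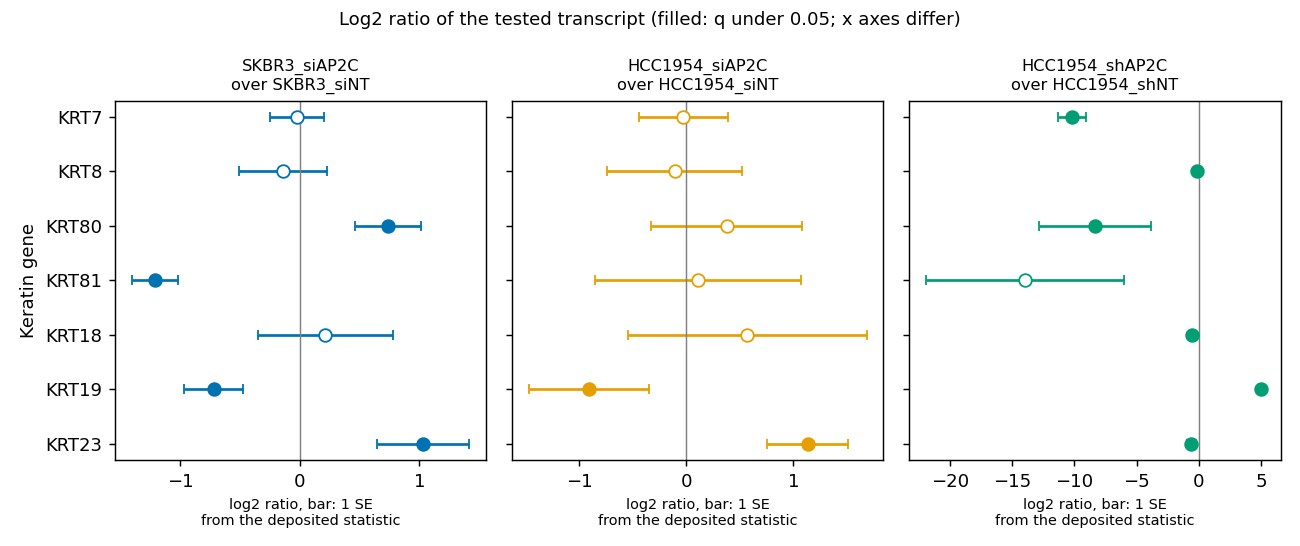
Log2 ratio of the tested transcript of each keratin, TFAP2C knockdown over control, in the 3 comparisons, with bars of 1 SE from the deposited test statistic and filled points where the deposited q was under 0.05. KRT19 lies at -0.72 and -0.91 in the siRNA comparisons and at 4.99 in the shRNA comparison, and KRT81 in the shRNA comparison, at -13.95, has the widest bar and is not called.

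Between the HCC1954 clones, 1 of 7 genes rose, against 36.3% of all 9564 tested genes, and 5 fell, against 39.2%. The rise was KRT19 and the falls were KRT7, KRT80, KRT18, KRT23 and KRT8. The members' median log2 ratio, from summed FPKM, was -0.58, and that of the tested transcripts of all tested genes was -0.04. From summed FPKM, the median over all genes at 1 FPKM or more in both groups was 3.06e-04.

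KRT19 was at 634 FPKM in the TFAP2C shRNA clones and 19.9 FPKM in the control shRNA clones, 31.8-fold higher in the TFAP2C shRNA clones (log2 ratio 4.99, SE 0.21, q = 1.21e-04). It ranked 54 of 27431 genes in the TFAP2C shRNA clones and 4442 in the control shRNA clones. The processed pseudogene KRT19P2 rose too, at 20.3 FPKM in the TFAP2C shRNA clones and 1.96 FPKM in the control shRNA clones, and reads of such a copy cannot be fully told apart from KRT19. KRT15, which lies beside KRT19 on the same strand, fell instead, at 8.46 FPKM in the TFAP2C shRNA clones and 1099 FPKM in the control shRNA clones.

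KRT7, which pairs with KRT19 and KRT18 in glandular epithelium, was at 0.550 FPKM in the TFAP2C shRNA clones and 639 FPKM in the control shRNA clones (log2 ratio -10.18, SE 1.12, q = 3.76e-03). With a pseudocount of 1 FPKM that log2 ratio was -8.69. KRT80 was at 1.57 FPKM in the TFAP2C shRNA clones and 64.7 FPKM in the control shRNA clones (summed log2 ratio -5.36, and -4.68 with the pseudocount). Both of its transcripts fell, each with a q of 1.21e-04. The tested one was at 0.131 FPKM in the TFAP2C shRNA clones and 41.5 FPKM in the control shRNA clones (log2 ratio -8.31, SE 4.51), and the other at 1.44 FPKM in the TFAP2C shRNA clones and 23.2 FPKM in the control shRNA clones.
KRT81 had the widest gap of the 7 genes, with 0.0458 FPKM in the TFAP2C shRNA clones and 727 FPKM in the control shRNA clones, but the deposited test did not call it (q = 0.298). Its log2 ratio of -13.95 had an SE of 7.95, and was -9.44 with the pseudocount of 1 FPKM. KRT86, the overlapping hair keratin, was at 0.0402 FPKM in the TFAP2C shRNA clones and 29.3 FPKM in the control shRNA clones and was not called either (q = 0.296).

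KRT8 and KRT18, the primary pair, were lower in the TFAP2C shRNA clones by much less. KRT8 was at 807 FPKM in the TFAP2C shRNA clones and 898 FPKM in the control shRNA clones, and its tested transcript was called lower at a log2 ratio of -0.16 (SE 0.12, q = 1.21e-04). The deposited statistic of that call was -1.31 beside a deposited p of 5e-05, 2 values that do not match on a normal scale, and at equal totals the summed log2 ratio was -0.045 in place of -0.15. Other members had such mismatches of statistic and deposited p too. Between the clones, KRT80 had -1.85, KRT23 -1.71 and KRT18 -2.72, each beside 5e-05. KRT7 had -9.10 beside 0.0019 there, and KRT81 -1.75 beside 0.248. With siRNA in HCC1954, KRT19 had -1.62 beside 1.5e-04 and KRT23 3.02 beside 5e-05. In SKBR3, KRT19 had -2.94, KRT80 2.68 and KRT23 2.68, each beside 5e-05. The SEs given here follow the statistic, and the calls follow the deposited q. KRT18 was at 306 FPKM in the TFAP2C shRNA clones and 459 FPKM in the control shRNA clones (log2 ratio -0.58, SE 0.21, q = 1.21e-04). KRT23 was at 17.6 FPKM in the TFAP2C shRNA clones and 19.9 FPKM in the control shRNA clones. Its tested transcript fell, at 12.9 FPKM in the TFAP2C shRNA clones and 19.4 FPKM in the control shRNA clones (log2 ratio -0.59, SE 0.35, q = 1.21e-04), while the other transcript, at 4.71 FPKM in the TFAP2C shRNA clones and 0.478 FPKM in the control shRNA clones, was not tested.

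**Figure D3:**
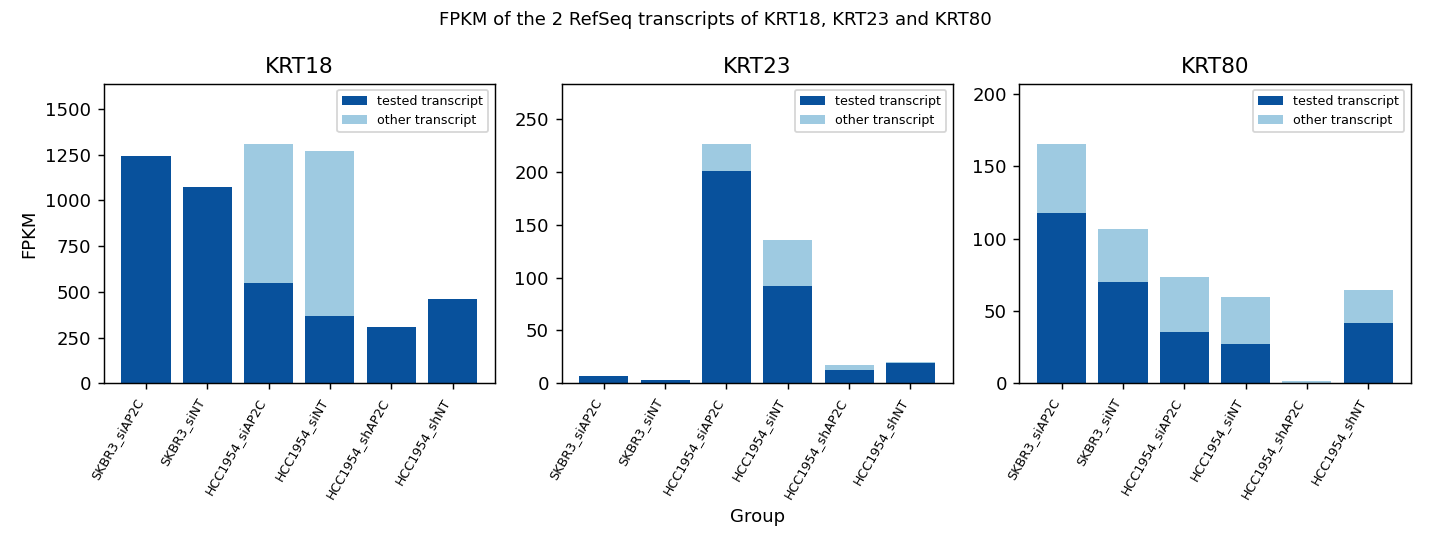
Summed FPKM of KRT18, KRT23 and KRT80 in the 6 groups, divided between the tested transcript and the other transcripts, with the TFAP2C knockdown left of its control. KRT18 is split between transcripts in HCC1954 with siRNA alone among the 3 comparisons, and in the TFAP2C shRNA clones the other KRT23 transcript is at 4.71 FPKM against 0.478 FPKM in the control shRNA clones.

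The differences between comparisons were tested directly, gene by gene, with a z test on the log2 ratios of the tested transcript, adjusted by the Benjamini-Hochberg method over all genes tested in both tables. It is a normal approximation, since no values of single samples are at hand for an exact test. SKBR3 and HCC1954 with siRNA had 0 of 7 called differences, against 0.505% of 8907 genes. KRT81 had the largest of these, -1.32 (SE 0.98) with an adjusted p of 1.00 and with a log2 ratio of -1.21 in SKBR3 and 0.11 in HCC1954, and 0 of the 7 had an unadjusted p under 0.05. With the SE taken from the deposited p instead, KRT81 alone was called, at an adjusted p of 0.0400, 1 of 7 against 12.4% of all genes. The TFAP2C shRNA response minus the siRNA response of HCC1954 was -10.16 (SE 1.19) for KRT7, 5.90 (SE 0.60) for KRT19 and -1.73 (SE 0.51) for KRT23, with adjusted p of 3.76e-15, 3.82e-20 and 8.50e-03. These 3 of 7 called differences stand against 13.8% of 8634 genes.
Set against SKBR3, the shRNA response again differed for KRT7 by -10.16 (SE 1.14), for KRT19 by 5.71 (SE 0.32) and for KRT23 by -1.63 (SE 0.52), with adjusted p of 3.76e-17, 1.69e-66 and 8.88e-03, against 26.9% of 8371 genes called. Both of these tests use the same shRNA comparison and are not independent of each other. With the SE from the deposited p, KRT80 and KRT18 were also called in both, 5 of 7, against 49.3% of all genes for HCC1954 siRNA and 60.7% for SKBR3. By that z test the adjusted p of KRT7 was 6.33e-03 against HCC1954 siRNA and 4.62e-03 against SKBR3. That of KRT19 was 1.59e-04 and 3.19e-05. The KRT18 differences rest on the tested transcript, which held 41.7% of KRT18 signal with TFAP2C siRNA and 29.0% with control siRNA in HCC1954. Those of KRT23 rest on its tested transcript too, at -0.59 between the clones, where the summed log2 ratio was -0.18.

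Keratin chains are used in pairs, so the balance of the 2 types was computed from the summed levels, first over the 7 genes alone. In SKBR3 the 7 genes summed to 5855 FPKM with TFAP2C siRNA and 6905 FPKM with control siRNA, and type II over type I was 1.30 with TFAP2C siRNA and 1.15 with control siRNA. In HCC1954 with siRNA they summed to 6948 FPKM with TFAP2C siRNA and 6711 FPKM with control siRNA, with type II over type I of 3.51 with TFAP2C siRNA and 3.75 with control siRNA. Between the clones the sum was 1767 FPKM in the TFAP2C shRNA clones and 2829 FPKM in the control shRNA clones, and type II over type I was 0.845 in the TFAP2C shRNA clones and 4.67 in the control shRNA clones. Over all 54 keratins the gap was much smaller, since the control shRNA clones also hold the type I genes KRT15 and KRT17: type II over type I was 0.820 in the TFAP2C shRNA clones and 1.41 in the control shRNA clones. It was 1.82 with TFAP2C siRNA and 1.60 with control siRNA in HCC1954, and 1.30 with TFAP2C siRNA and 1.17 with control siRNA in SKBR3. By either sum the TFAP2C shRNA clones were the one group of the 6 with more type I than type II FPKM. KRT8 over KRT18 alone was 2.63 in the TFAP2C shRNA clones and 1.96 in the control shRNA clones.
The makeup of the summed signal in the TFAP2C shRNA clones was 45.7% KRT8, 35.9% KRT19 and 17.3% KRT18, whereas in the control shRNA clones it was 31.8% KRT8, 25.7% KRT81, 22.6% KRT7, 16.2% KRT18 and 0.705% KRT19. In HCC1954 of the siRNA experiment KRT19 made up 0.0577% of the signal with TFAP2C siRNA and 0.112% with control siRNA. In SKBR3 KRT19 made up 22.2% with TFAP2C siRNA and 30.9% with control siRNA.

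**Figure D4:**
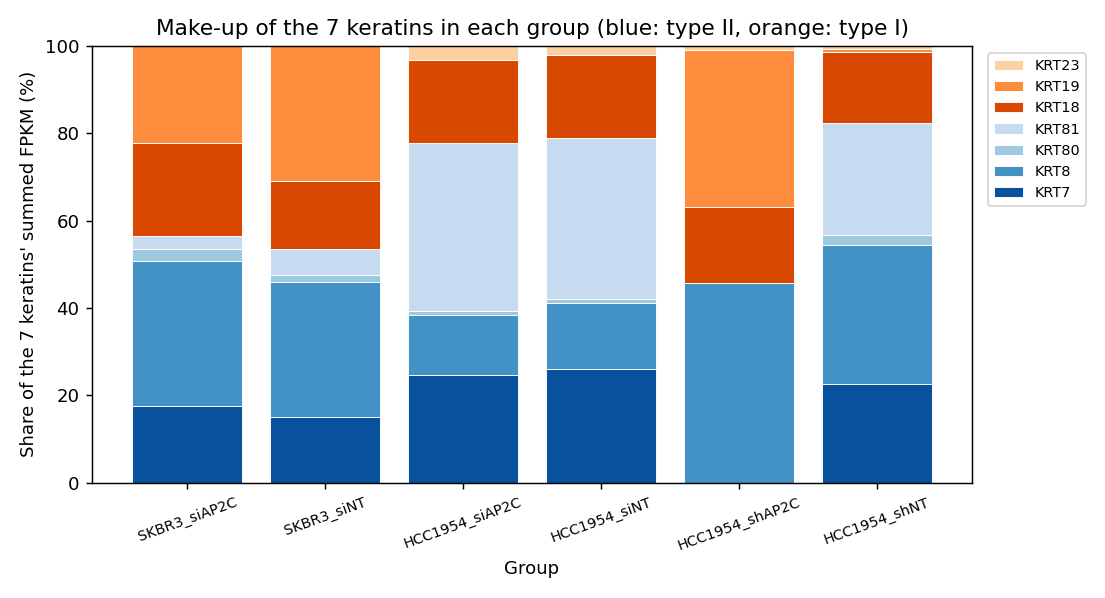
Share of each of the 7 keratins in their summed FPKM, in percent, for the 6 groups, with the TFAP2C knockdown left of its control. KRT8, KRT18 and KRT19 make up nearly all of the TFAP2C shRNA clones' bar, where KRT81 and KRT7, together large in the control shRNA clones' bar, are at 0.00259% for KRT81 and 0.0311% for KRT7.

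The tables hold 54 keratin genes, so 47 others surround the 7. In SKBR3, 4 of the others were tested, 0 rose and 2 fell (KRT15 and KRT4), by the authors' deposited Cuffdiff test. Of all tested genes there, 12.3% rose and 21.0% fell. Of the others in HCC1954 with siRNA, 17 were tested, 7 rose, against 2.31% of all tested genes, and 2 fell, against 0.965%. The 7 that rose, KRT14, KRT16, KRT17, KRT6A, KRT6B, KRT6C and KRT75, are among the 9 basal and stress keratins listed. Of the other two on that list, KRT15, a basal keratin and its most abundant member, fell, and KRT5 was at 46.4 FPKM with TFAP2C siRNA and 40.2 FPKM with control siRNA (q = 0.653). The 9 summed to 2041 FPKM with TFAP2C siRNA and 2372 FPKM with control siRNA. KRT4, the other keratin that fell, is not on that list. KRT17 was at 649 FPKM with TFAP2C siRNA and 357 FPKM with control siRNA, and KRT75, a hair follicle keratin, was at 48.8 FPKM with TFAP2C siRNA and 10.1 FPKM with control siRNA.
Between the clones 13 of the others were tested, 10 fell, against 39.2% of all tested genes, and 1 rose, against 36.3%. KRT222, the gene that rose, was at 6.07 FPKM in the TFAP2C shRNA clones and listed at 0 in the control shRNA clones. KRT5 was at 0.342 FPKM in the TFAP2C shRNA clones and 281 FPKM in the control shRNA clones, and KRT17 at 0.109 FPKM in the TFAP2C shRNA clones and 320 FPKM in the control shRNA clones. The 7 genes held 98.2% of all keratin FPKM in the TFAP2C shRNA clones and 59.5% in the control shRNA clones, against 72.0% with TFAP2C siRNA and 69.2% with control siRNA in HCC1954, and 98.3% with TFAP2C siRNA and 97.8% with control siRNA in SKBR3.

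**Figure D5:**
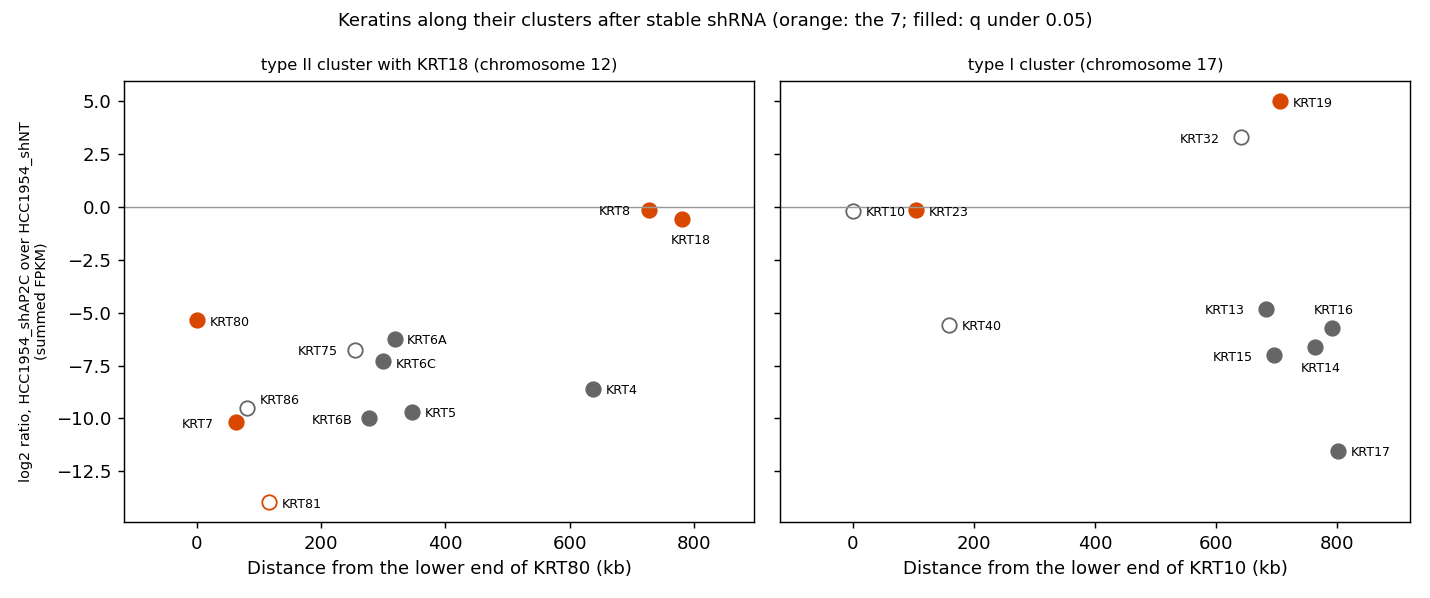
Log2 ratio of summed FPKM, TFAP2C shRNA clones over control shRNA clones, for keratin genes along the clusters of chromosome 12 and chromosome 17. Distance is from the lower end of KRT80 on chromosome 12 and of KRT10 on chromosome 17. The 7 genes are marked, and genes at 0 in a group or under 1 FPKM in both are left out. On chromosome 12 KRT8 and KRT18 lie near 0 while KRT7, KRT80, KRT81 and their neighbours lie far below, and on chromosome 17 KRT19 is at 4.99 next to KRT15 at -7.02.

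Of the genes within 200 kb of KRT8 and KRT18 that are no keratins, 3 were tested between the clones and 3 rose, where 36.3% of all tested genes rose: EIF4B (a translation initiation factor), SPRYD3 and IGFBP6 (an insulin-like growth factor binding protein). IGFBP6 was at 24.5 FPKM in the TFAP2C shRNA clones and 0.865 FPKM in the control shRNA clones, and EIF4B at 266 FPKM in the TFAP2C shRNA clones and 61.1 FPKM in the control shRNA clones. With siRNA 2 of these 3 were tested in either line, SPRYD3 fell in SKBR3, at 15.5 FPKM with TFAP2C siRNA and 19.9 FPKM with control siRNA, and neither was called in HCC1954. In the same window around KRT80, KRT7 and KRT81, 2 genes that are no keratins were tested between the clones. Of these, 1 rose and 0 fell. Around KRT19, 1 such gene was tested and it fell, where 39.2% of all tested genes fell.

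Keratin filaments are anchored at desmosomes by plakins and plakophilins, and 14 such linkers were examined. In SKBR3 3 of 11 tested rose and 1 fell, against 12.3% and 21.0% of all tested genes. Their median log2 ratio was -0.06, against -0.10 over all tested genes. PPL (periplakin) was at 23.5 FPKM with TFAP2C siRNA and 14.0 FPKM with control siRNA, and DSG2 (desmoglein) at 64.1 FPKM with TFAP2C siRNA and 43.8 FPKM with control siRNA. PKP1 (plakophilin), the gene that fell, was at 1.22 FPKM with TFAP2C siRNA and 6.98 FPKM with control siRNA. With siRNA in HCC1954, 1 of 11 rose and 0 fell, against 2.31% and 0.965% of all tested genes. The gene that rose was PLEC (plectin), at 31.0 FPKM with TFAP2C siRNA and 22.4 FPKM with control siRNA. Between the clones 2 of 12 rose and 9 fell, against 36.3% and 39.2% of all tested genes, with a median of -0.60 against -0.04. DSP (desmoplakin) was at 41.2 FPKM in the TFAP2C shRNA clones and 84.0 FPKM in the control shRNA clones, and DST (dystonin, which ties keratins to hemidesmosomes) at 7.74 FPKM in the TFAP2C shRNA clones and 24.6 FPKM in the control shRNA clones. PLEC, called higher with siRNA in the same line, fell here, at 33.0 FPKM in the TFAP2C shRNA clones and 48.0 FPKM in the control shRNA clones.

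The 20 transcription and splicing regulators of epithelial and luminal cells examined include TFAP2C, the knockdown target, whose fall is no result about the list. In SKBR3 5 of 19 tested rose and 4 fell, TFAP2C among them (median log2 ratio 0.09 against -0.10). Of all tested genes there, 12.3% rose and 21.0% fell. SPDEF fell, at 39.3 FPKM with TFAP2C siRNA and 152 FPKM with control siRNA, and KLF5 rose, at 36.2 FPKM with TFAP2C siRNA and 16.2 FPKM with control siRNA. In HCC1954 with siRNA 0 of 20 rose and 1 fell, TFAP2C itself (median 0.0089 against -0.0039), where 2.31% of all tested genes rose and 0.965% fell. Between the clones 3 of 20 rose and 15 fell, TFAP2C again among them (median -2.01 against -0.04). Of all tested genes between the clones, 36.3% rose and 39.2% fell. CEBPB, a basic leucine zipper factor, was at 14.1 FPKM in the TFAP2C shRNA clones and 168 FPKM in the control shRNA clones, and GATA3 and FOXA1, at the levels given above, fell as well.

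Which genes followed each keratin was described by Pearson's r of log2(FPKM + 1) over the 6 groups, among 9734 genes that reached 10 FPKM in a group. These are 6 pooled values in which both groups of a comparison share a table, so r is given as a description with no test. S100P, a calcium-binding protein, was nearest to KRT7 (r = 0.999), and ERBB2 was nearest to KRT81 (r = 0.999). ERBB2 was at 609 FPKM with TFAP2C siRNA and 1109 FPKM with control siRNA in SKBR3, at 4016 FPKM with TFAP2C siRNA and 4676 FPKM with control siRNA in HCC1954, and at 20.8 FPKM in the TFAP2C shRNA clones and 1525 FPKM in the control shRNA clones. For KRT19 the nearest was ACAA2 (r = 0.999), a mitochondrial thiolase, and KRT19P2 was the third. ABHD12 was nearest to KRT8, TMEM45B to KRT18, CNNM4 to KRT80 and LMO4 to KRT23. Among the 7 genes the highest r was 0.956, between KRT7 and KRT81, and the lowest was -0.914, between KRT19 and KRT23, while the obligate pair KRT8 and KRT18 had an r of 0.557.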

How the data were processed

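Library preparation used an Illumina TruSeq RNA kit, per the labels. The submitters' processing notes name Bowtie 0.12.2, Cuffdiff (no version stated there), hg19 and GRCh37. Per the file headers, the authors deposited 1 FPKM value per transcript and group, pooled over 3 samples. The test statistic (a score), the p-value and the q-value were used as deposited by the authors. The smallest deposited p was 5e-05. No column holds a single sample, so depth and replicate spread are unknown and no model was fitted to samples. The siRNA table of HCC1954 names its columns by siRNA alone and was taken as that line from the name of the deposited file.

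Of 66321 RefSeq accessions, 65468 matched a symbol through a RefSeq name table and 853 did not. FPKM was summed per symbol, and calls were taken from the transcript with the highest mean FPKM. Differences between comparisons used a two-sided z, in which the SE of a log2 ratio is that ratio divided by its deposited statistic and both SEs add in squares. The test was checked on data simulated with normal errors of those same SEs. Such a check cannot show whether the SEs suit the real values. Coordinates come from the GENCODE annotation on GRCh37. Genes are named by a rule: the 7 keratins, KRT86 and the basal, stress and hair keratins, called members of 4 lists (up to 4 for each comparison) and the 3 genes with the highest r. EIF4B, SPRYD3, IGFBP6, KRT4, KRT222, KRT7-AS, KRT19P2 and the markers given with values were named after their values were seen. The members and lists were chosen with earlier results of these data known. Alternatives were another transcript rule, adjustment, threshold, filter, pseudocount, scaling and SE. Python 3.11.15, pandas 2.3.3, numpy 2.4.6, scipy 1.17.1 and matplotlib 3.10.9 were used.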

Additional observations from a re-analysis of the deposited data

Results flagged for a closer look

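The response of 3 keratins differed between comparisons by the z test of the difference itself. The log2 ratio of the HCC1954 shRNA comparison minus that of the HCC1954 siRNA comparison was -10.16 for KRT7, 5.90 for KRT19 and -1.73 for KRT23. Set against the SKBR3 siRNA comparison, the same differences were -10.16 for KRT7, 5.71 for KRT19 and -1.63 for KRT23. KRT19 was higher in the TFAP2C shRNA clones than in the control shRNA clones and lower with TFAP2C siRNA than with control siRNA in both lines. For KRT23 the tested transcript was lower in the TFAP2C shRNA clones and higher with TFAP2C siRNA in both lines. In HCC1954 the other KRT23 transcript moved the opposite way in both comparisons, untested between the clones and not called with siRNA. Summed over transcripts, the KRT23 log2 ratio between the clones was -0.18. The part of stable cloning in these differences was not tested.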

How the results depend on the processing

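Of 108 log2 ratios of the 7 genes recomputed with another transcript rule, pseudocount, scaling or, for KRT81, with KRT86 added (an alternative chosen after seeing the data), 106 kept their direction. KRT7 in SKBR3, not called, turned to 0.056 when the median of all genes was removed and to 0.098 at equal totals. At a q under 0.01, 1 gene was called in HCC1954 with siRNA (KRT23), KRT19 being lost. With the SE from the deposited p, 5 of 7 differences were called between the shRNA and siRNA comparisons of HCC1954, against 49.3% of all genes. Between shRNA and SKBR3 5 were called, against 60.7%, and between SKBR3 and HCC1954 with siRNA 1 was called, against 12.4%. For the genes gained (KRT80 and KRT18 in both shRNA tests, KRT81 between the siRNA comparisons) this SE was the smaller one, for KRT81 0.46 in place of 0.98. For KRT7 and KRT19 it was the larger one in both shRNA tests. Against HCC1954 siRNA it was 3.28 in place of 1.19 for KRT7 and 1.25 in place of 0.60 for KRT19. Counts of calls under the other alternatives were within 1.5 times those reported. With at least 1 FPKM asked of both groups, KRT7 left the shRNA comparison, where 5 genes were then called. In each test that uses that comparison 2 differences were called, against 1087 of 8403 genes for HCC1954 siRNA and 2160 of 8184 for SKBR3. No share of all genes was computed for the calls at a q under 0.01 or after this filter. No paired analysis was possible because each group has 1 pooled value, and leaving out a replicate could not be run for the same reason. Depth is unknown, so no limit can be set for genes near 0 FPKM.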

Other observations

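Among 13 other intermediate filament genes, 3 of 4 tested fell in SKBR3, against 21.0% of all tested genes. They were the nuclear lamins LMNA, LMNB1 and LMNB2. LMNB1 was at 18.7 FPKM with TFAP2C siRNA and 31.1 FPKM with control siRNA. In HCC1954 with siRNA 1 of 5 rose, against 2.31% of all tested genes. It was VIM, the filament of mesenchymal cells, at 12.6 FPKM with TFAP2C siRNA and 3.81 FPKM with control siRNA. Between the clones 2 of 5 rose and 2 fell, against 36.3% and 39.2% of all tested genes. VIM fell, at 0.672 FPKM in the TFAP2C shRNA clones and 5.46 FPKM in the control shRNA clones, and NES, the filament of neural progenitors, rose, at 12.2 FPKM in the TFAP2C shRNA clones and 0.0433 FPKM in the control shRNA clones. LMNA fell there too, at 169 FPKM in the TFAP2C shRNA clones and 309 FPKM in the control shRNA clones, and LMNB2 rose, at 168 FPKM in the TFAP2C shRNA clones and 122 FPKM in the control shRNA clones. The median log2 ratios of the list were -0.43, 0.03 and -0.04, against -0.10, -0.0039 and -0.04 over all tested genes (SKBR3 siRNA, HCC1954 siRNA and HCC1954 shRNA).

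Of 15 chaperones, kinases and turnover proteins of keratins, 5 of 15 tested rose and 2 fell in SKBR3, against 12.3% and 21.0% of all tested genes. SQSTM1, an autophagy receptor that gathers with KRT8 and KRT18 in Mallory-Denk bodies of liver, was at 454 FPKM with TFAP2C siRNA and 203 FPKM with control siRNA. ATF3, a stress-induced factor, was at 70.03 FPKM with TFAP2C siRNA and 30.6 FPKM with control siRNA. In HCC1954 with siRNA 1 of 15 rose, against 2.31% of all tested genes. It was PRKCE, at 6.11 FPKM with TFAP2C siRNA and 4.12 FPKM with control siRNA. Between the clones 3 of 14 rose and 5 fell, against 36.3% and 39.2% of all tested genes. YWHAZ, another 14-3-3 protein, was at 814 FPKM in the TFAP2C shRNA clones and 1650.1 FPKM in the control shRNA clones, and SFN, a 14-3-3 protein of epithelia that binds keratins, was at 119 FPKM in the TFAP2C shRNA clones and 286 FPKM in the control shRNA clones. The median log2 ratios of this list were 0.30, 0.11 and -0.30 in the same 3 comparisons, against -0.10, -0.0039 and -0.04 over all tested genes.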
